A study of Mus musculus with 3 samples.

Results

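Purinergic receptors are the proteins through which cells sense ATP, ADP and related nucleotides outside the cell. The set described here was chosen by gene symbol and holds 10 of the 32227 genes in the files: P2rx2, P2rx3, P2rx4, P2rx5, P2rx6, P2rx7, P2ry1, P2ry2, P2ry12 and P2ry14. They were followed in single-nucleus RNA sequencing of lumbar dorsal root ganglia (DRG, the ganglia that hold the cell bodies of peripheral sensory neurons) from C57BL/6 mice labelled as male. There was 1 library from adult mice of 3 months and there were 2 libraries from aged mice of 21 months, with no transgene, treatment or injury named for any of them. The sources used here do not give the number of mice behind a library, so p-values measure only the spread between these 3 libraries, and age and whatever else sets the adult library apart cannot be told apart. The ages are those of the sample labels; the design text of the series gives the aged animals another one. The sex in the labels does not hold up against the data: Xist, the RNA of the inactive X chromosome of female cells, was at 1414, 844 and 929 UMIs per 1000000 in the adult library and the aged replicates 1 and 2, and was seen in 85.5%, 66.3% and 72.2% of their nuclei. The 4 Y-linked genes Ddx3y, Uty, Kdm5d and Eif2s3y summed to 24.4, 14.9 and 9.22 UMIs per 1000000, and were seen in 14.9%, 13.5% and 11.0% of nuclei. Whether the libraries hold nuclei of both sexes was not tested. The study's methods name females among its adult mice and for the 21-month age, and whether the libraries differ in their make-up by sex was not tested.

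The P2X receptors are ion channels that open when ATP binds, and each channel is a trimer of the same or of mixed subunits. The P2Y receptors are coupled to G proteins and respond to ATP, ADP, UTP or UDP-sugars, depending on the receptor. In sensory ganglia, P2X3 channels of nociceptors, alone or with P2X2, are known for turning ATP released by damaged tissue into nerve impulses, while P2X4, P2X7 and P2Y12 are best known from glia and macrophages.

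A nucleus was kept when more than 1000 genes were detected in it, which left 11518 adult nuclei and 5130 and 2611 aged nuclei, with median depths of 3269, 4317.5 and 4900 unique molecular identifiers (UMIs) per nucleus. Pairs of libraries shared 0 or 1 kept barcode. Nuclei were clustered without the purinergic genes, and each name used below stands for nuclei that are like that cell type by markers. The 9 classes tested were satellite glial cells (SGCs, which wrap the neuron's cell body), non-myelinating and myelinating Schwann cells (NMSCs and MSCs), neurons, fibroblasts, endothelial cells, myeloid cells, T cells and B cells. Myeloid and T cell nuclei came from 1 cluster of 719 nuclei, split nucleus by nucleus by which list had more marker UMIs, and 110 of them with none or a tie stayed unnamed. The 6 neuron subtypes were the non-peptidergic Mrgprd and Sst nociceptors (NP Mrgprd and NP Sst), peptidergic nociceptors (PEP), Trpm8 cold-sensing neurons, TH low-threshold neurons and large-diameter neurofilament neurons (NF). All 7 neuron markers and all 7 MSC markers were highest in their own class, but of the 6 SGC markers 4 were and of the 6 NMSC markers 3 were. Of the 5 that were not, Slc1a3 was highest in fibroblasts, Glul in endothelial cells, L1cam and Ngfr in neurons, and the NMSC marker Grik3 in SGCs. The libraries differed in the share of UMIs from Malat1, an RNA retained in the nucleus: its median was 8.78% in adult SGCs against 2.32% and 2.48% in the aged, and 3.36% in adult neurons against 1.04% and 1.34%. Neuron nuclei with a Malat1 share under 1% made up 19.0% of the adult neurons and 49.1% and 38.2% of the aged.

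Over all kept nuclei the files held 12427 UMIs of P2rx3, 7593 of P2rx4, 6448 of P2rx7, 5978 of P2ry1, 2394 of P2ry12, 2008 of P2rx6, 1569 of P2ry14, 1391 of P2ry2, 742 of P2rx5 and 353 of P2rx2. A level below is a gene's UMIs in a class or subtype of a library, scaled to a total of 1000000 UMIs (CPM), and the 3 values of a series are in the order adult, aged replicate 1 and aged replicate 2. Levels of different receptors are not compared, since a nuclear UMI count also depends on the gene's length. A fold change is the log2 difference of a class from the mean of the other classes, or of a subtype from the mean of the other subtypes, with its standard error (SE), and a difference was called at an adjusted p under 0.05. The low-count filter passed 8 members in the class comparison, all but P2rx2 and P2rx5, and all 10 in the subtype comparison.

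Of the 72 pairs of a tested member and a class, 15 were called higher and 12 lower, where 18.5% of all gene and class pairs were called higher and 13% lower. In neurons 3 members were called higher, P2rx3, P2rx6 and P2ry1, against a background of 34.6% of genes called higher there. In myeloid nuclei 4 members were called higher, P2rx4, P2rx7, P2ry12 and P2ry14, against a background of 22.5%. Of the 60 pairs of a member and a neuron subtype, 12 were called higher and 18 lower, against backgrounds of 17.6% and 14.4%.

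**Figure D1:**
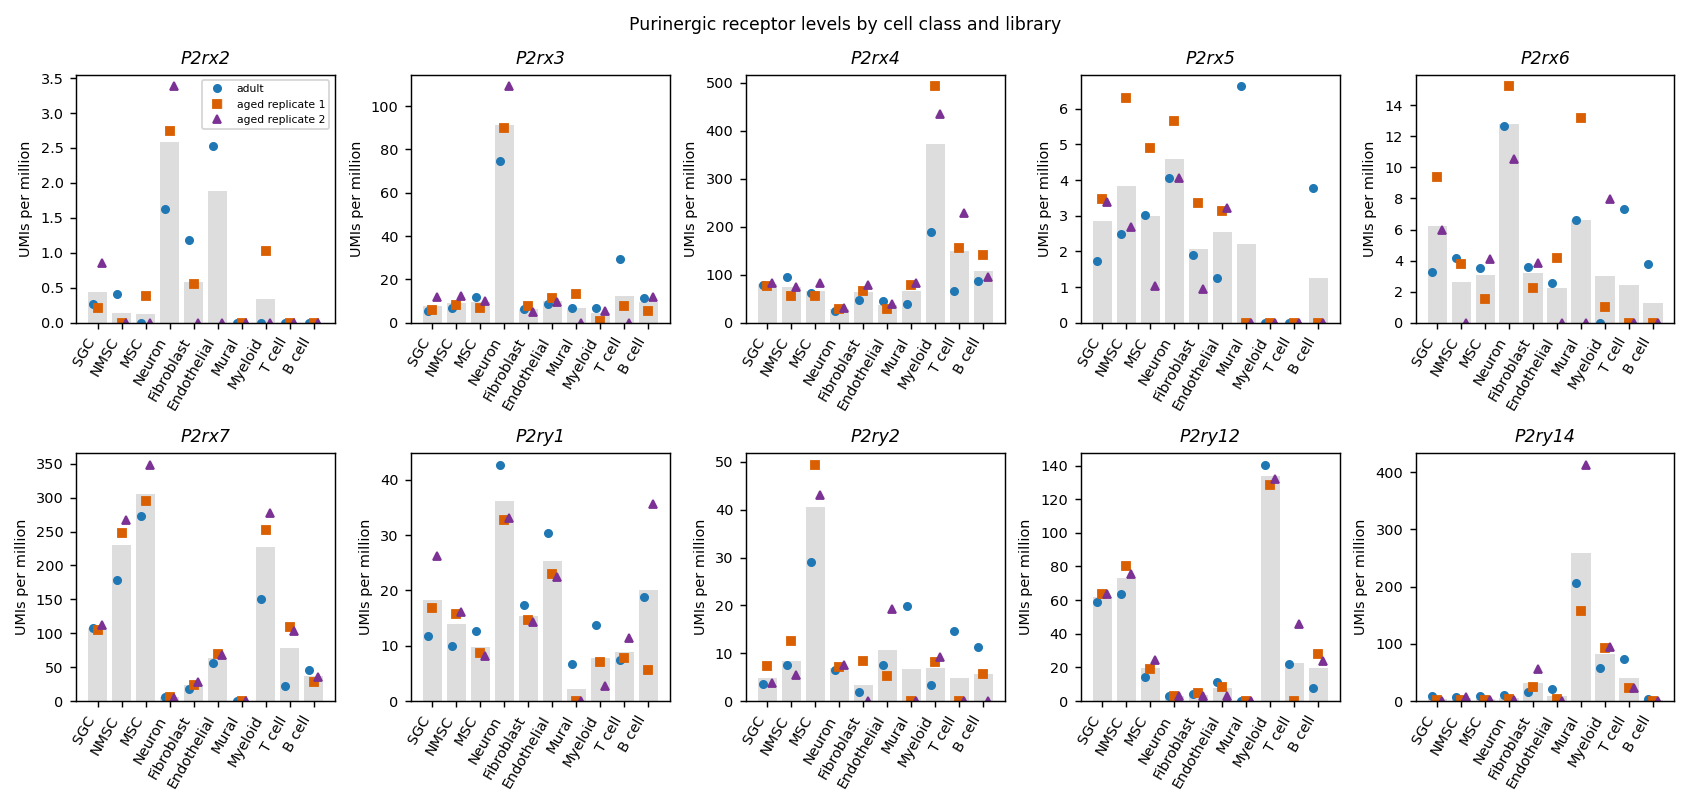
Level of each purinergic receptor gene, in CPM of the class, in the cell classes of adult and aged DRG. Points are libraries and grey bars their mean; P2rx3 lies highest in neurons at 74.6, 89.8 and 109 CPM, P2rx7 in myelinating Schwann cells at 273, 296 and 349 CPM, and P2ry12 in myeloid nuclei at 141, 128 and 132 CPM.

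The windows before the start sites of the 4 receptors called higher in myeloid nuclei are shown, since these genes shared a class and the first 3 of them also lay above the neurons in glia. Each is the stretch of the 250 bases before the RefSeq start (GRCm38.p6) that also lies before the GENCODE start of the gene, written in the direction of transcription. Capitals mark matches, on either strand, to TGACTCA (the AP-1 motif), GAGGAA (the core of the ETS motif of PU.1), ACAAAG or ACAATG (SOX motifs), and no matches overlapped.
P2rx4, chr5:122707294-122707543, plus strand, 250 bases: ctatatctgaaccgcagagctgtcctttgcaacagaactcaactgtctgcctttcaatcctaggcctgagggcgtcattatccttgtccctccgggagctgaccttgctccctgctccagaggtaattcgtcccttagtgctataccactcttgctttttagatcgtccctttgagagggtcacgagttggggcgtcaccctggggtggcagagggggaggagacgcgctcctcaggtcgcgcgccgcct
P2rx7, chr5:122643677-122643910, plus strand, 234 bases: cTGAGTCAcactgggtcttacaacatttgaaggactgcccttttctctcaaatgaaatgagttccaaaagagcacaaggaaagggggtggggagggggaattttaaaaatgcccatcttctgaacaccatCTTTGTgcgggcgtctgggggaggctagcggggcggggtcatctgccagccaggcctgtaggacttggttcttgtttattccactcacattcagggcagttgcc
P2ry12, chr3:59262986-59263235, minus strand, 250 bases: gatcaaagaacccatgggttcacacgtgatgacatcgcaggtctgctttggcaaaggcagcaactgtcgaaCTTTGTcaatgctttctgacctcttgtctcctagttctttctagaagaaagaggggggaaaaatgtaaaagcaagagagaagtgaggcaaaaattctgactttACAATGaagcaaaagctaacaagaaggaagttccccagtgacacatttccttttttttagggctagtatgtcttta
P2ry14, chr3:59153619-59153742, minus strand, 124 bases: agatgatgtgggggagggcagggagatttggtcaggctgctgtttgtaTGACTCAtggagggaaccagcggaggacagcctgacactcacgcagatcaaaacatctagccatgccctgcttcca

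The P2rx7 window holds TGAGTCA, the AP-1 letters of the other strand, 249 bases before the start and CTTTGT, a SOX match, 120 bases before it. The P2ry12 window holds SOX matches 179 and 76 bases before the start. The P2ry14 window holds TGACTCA 202 bases before the RefSeq start, and a GAGGAA lies 21 bases before that start, inside the gene as GENCODE draws it. The P2rx4 window holds no match to these letters. RefSeq gives further start sites inside the gene, 1 for P2rx7, whose window holds no match, and 3 for P2ry14. The windows of these 3 each hold GAGGAA on the other strand, 29, 239 and 30 bases before the start. Those with matches at 29 and 239 bases overlap, and these matches are the same letters of the genome. The window of the outermost start is the one shown. Among 32851 RefSeq windows of 250 bases, 4.46% hold the AP-1 letters, 23.3% GAGGAA, 16.5% ACAAAG and 10.7% ACAATG on either strand, and each match is a description of the letters only. RefSeq windows were matched for 7 of the 10 members: P2rx2, P2rx3 and P2rx5 are named only. The window of P2rx6, which was called higher in neurons, holds GAGGAA on the other strand 67 bases and ACAAAG 95 bases before the start. Those of P2ry1 and P2ry2 hold no match.

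The P2X subunits of nociceptors came first in the neurons. P2rx3 (ENSMUSG00000027071, chromosome 2, 84998583 to 85037462, mm10) encodes the subunit of the fast ATP channel of nociceptors. Its level in neurons was 74.6, 89.8 and 109 CPM, or 91.2 ± 17.3 (SD, n = 3 libraries), and in the other 8 classes the mean lay between 4.39 CPM in myeloid nuclei and 12.4 CPM in T cells. The 3 neuron values lay above the values of every other class in every library, and the log2 fold change was 3.72 (SE 0.16, adjusted p = 6.99e-17). Of all P2rx3 UMIs in kept nuclei, a mean of 97.2% per library lay in neurons. The lower call in myeloid nuclei, by 1.81 on the log2 scale (adjusted p = 0.00406), turned to a log2 fold change of 0.57 when nuclei were classed by a marker gate, and rested on 7 UMIs.

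Within neurons, P2rx3 was highest in NP Mrgprd nuclei, the skin-innervating nociceptors, at 256, 284 and 314 CPM (log2 fold change 3.49, SE 0.16, adjusted p = 7.89e-12). NP Sst nuclei, the itch neurons that make somatostatin, followed at 127, 112 and 168 CPM (2.03, SE 0.22, adjusted p = 7.84e-07). PEP nuclei held 51.3, 41.7 and 48.4 CPM, and these 3 subtypes did not overlap one another in any library. TH, Trpm8 and NF nuclei, at means of 19.2, 11.1 and 9.67 CPM, were each called lower; Trpm8 overlapped with both of the others, and TH lay above NF. At least 1 P2rx3 UMI was seen in 60.6%, 53.0% and 60.1% of NP Mrgprd nuclei (median depth 5627, 5951 and 5860 UMIs) and in 1.76%, 2.77% and 2.01% of fibroblast nuclei (2674, 3070 and 4177 UMIs). With each nucleus thinned to 1000 UMIs, a depth that left out no nucleus, the shares were 17.2%, 16.1% and 20.1% against 0.536%, 0.504% and 0.503%. A cluster led by Mrgpra3, which held too few of the fixed markers for a subtype name, had a P2rx3 level of 146 ± 34.5 CPM (SD, n = 3 libraries), and the PEP cluster led by Chrna7 and Bmpr1b had 67.7 ± 7.08 CPM.

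P2rx3 also varied inside NP Mrgprd nuclei with the Malat1 share. Nuclei with a Malat1 share under 1% had 92.2, 126 and 187 CPM, and the other NP Mrgprd nuclei had 266, 329 and 332 CPM. In each library the low-Malat1 nuclei held less P2rx3.

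P2rx2, which encodes the subunit that joins P2X3 in mixed channels, was sparse: neurons held 110, 113 and 103 UMIs, or 1.62, 2.74 and 3.38 CPM. The highest level among the subtypes was that of NP Sst nuclei, at 37.9, 71.8 and 81.8 CPM on 41, 57 and 58 UMIs. The next subtype was Trpm8 at 4.51, 7.63 and 12.2 CPM, and the other 4 lay at means between 0.33 and 1.12 CPM. NP Sst was called higher (log2 fold change 5.73, SE 0.26, adjusted p = 4.94e-12), and so was Trpm8 (2.18, SE 0.36, adjusted p = 0.000142). NP Mrgprd, the subtype with the most P2rx3, held 1, 8 and 3 P2rx2 UMIs and was called lower (log2 fold change -2.70, adjusted p = 4.59e-05). In NP Sst nuclei a P2rx2 UMI was seen in 37.7%, 38.6% and 54.5% of nuclei, against 0.112%, 1.54% and 0.888% of NP Mrgprd nuclei; thinned to 1000 UMIs, the shares rested on 2, 2 and 1 nuclei in NP Sst. Of the NP Sst nuclei with P2rx2, 50%, 50% and 77.8% also had a P2rx3 UMI, against 62.8%, 20% and 26.7% of those without P2rx2. The order of the shares was thus not the same in the adult and the aged nuclei. These shares were not thinned to a common depth. The lower calls of P2rx2 in PEP and TH nuclei turned to log2 fold changes of 1.12 and 0.80 where NP Sst and Trpm8 were not in the fit, as a minimum of 50 nuclei required.

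**Figure D2:**
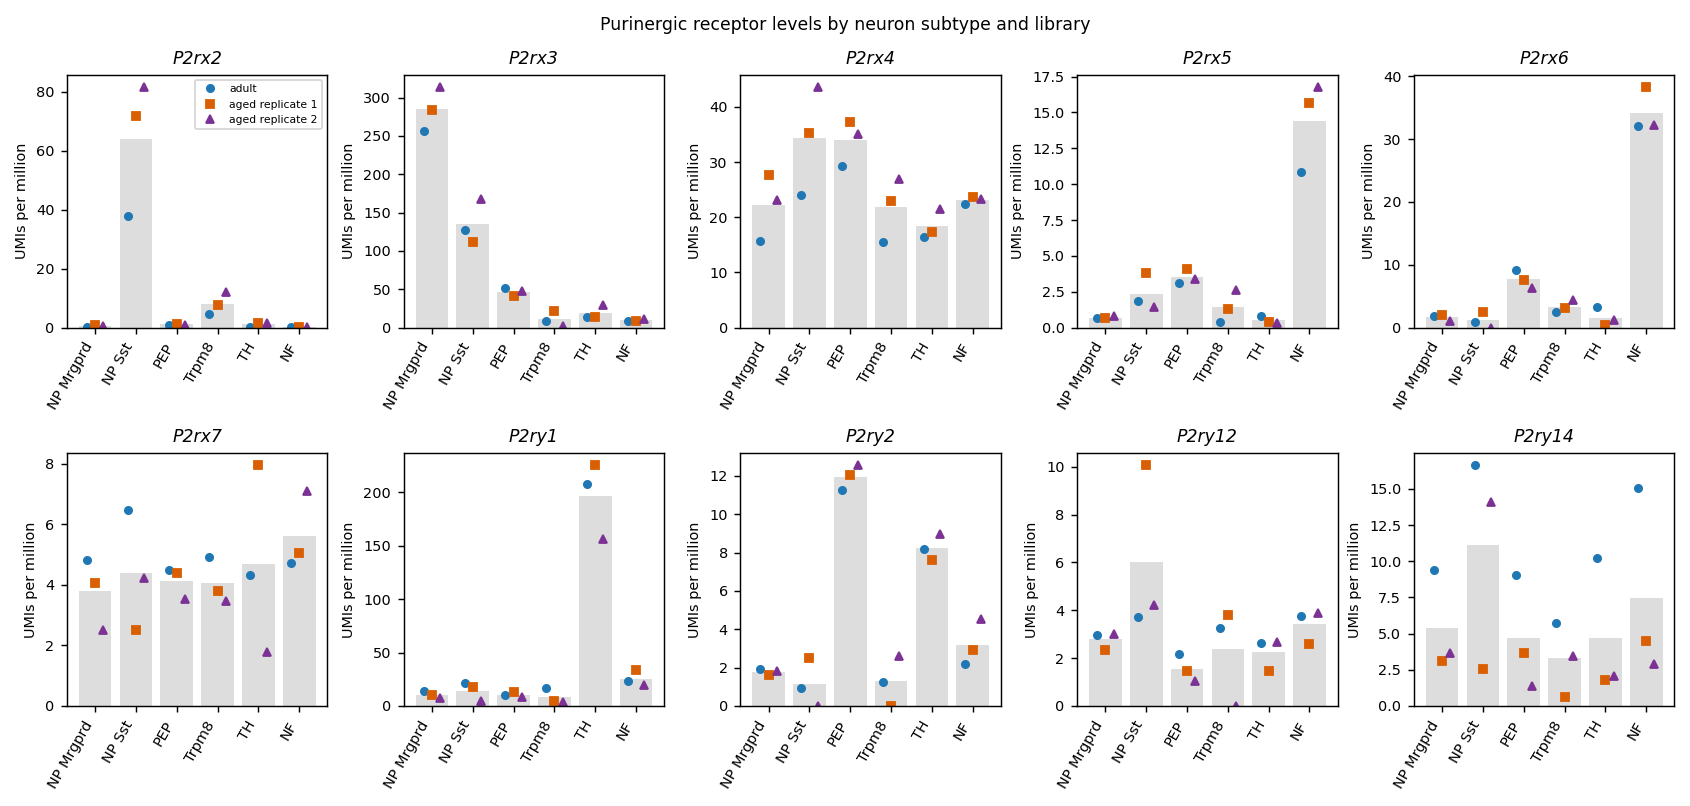
Level of each purinergic receptor gene, in CPM of the subtype, in 6 neuron subtypes. Points are libraries and grey bars their mean; P2rx3 lies highest in NP Mrgprd nuclei, P2rx2 in NP Sst nuclei, P2rx5 and P2rx6 in NF nuclei and P2ry1 in TH nuclei.

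P2rx5 and P2rx6, whose products form channels poorly on their own, were both highest in NF nuclei, the mechanosensory and proprioceptive neurons. P2rx5 in NF was 10.8, 15.6 and 16.8 CPM (log2 fold change 3.34, SE 0.22, adjusted p = 4.94e-10), and PEP followed at 3.53 ± 0.49 CPM (SD, n = 3 libraries), called higher than the mean of the others as well (0.96, adjusted p = 0.00692, and 0.106 under the marker gate). P2rx6 in NF was 32.0, 38.4 and 32.3 CPM (3.76, SE 0.21, adjusted p = 4.64e-11), above every value of the other subtypes. PEP was next at 9.18, 7.63 and 6.35 CPM (1.21, adjusted p = 0.00103), a call that turned to a log2 fold change of -0.24 under the marker gate. Among the neuron clusters, P2rx6 was 46.2 ± 8.29 CPM in the NF cluster led by Mafa and Spp1 and 45.2 ± 3.06 CPM in a cluster without a subtype name led by Il1rapl2 (SD, n = 3 libraries). In the same Il1rapl2 cluster P2rx5 was 2.91 ± 1.30 CPM, below its 3 values in NF. Over all neurons P2rx6 was 12.7, 15.2 and 10.5 CPM (log2 fold change 2.29 against the other classes, SE 0.33, adjusted p = 9.42e-07), and P2rx5 was 4.05, 5.67 and 4.07 CPM, within the spread of NMSCs at 2.49, 6.29 and 2.69 CPM. P2rx6 shares 5783 bases with Slc7a4 on the opposite strand, and P2rx3 shares 229 bases with Ssrp1 on the opposite strand; whether the counting used strand is not given in the sources used here.

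P2rx4 (ENSMUSG00000029470, chromosome 5, 122707544 to 122729738), a channel of macrophages and microglia that acts in neuropathic pain, was found in every class tested. Myeloid nuclei held 189, 492 and 435 CPM, the highest level (log2 fold change 2.502, SE 0.19, adjusted p = 2.17e-11). T cells followed at 150 ± 81.2 CPM on 9, 20 and 20 UMIs, and B cells at 107 ± 28.9 CPM (SD, n = 3 libraries), and the T cell values overlapped with those of both. SGCs held 79.0, 77.3 and 82.7 CPM, and NMSCs, MSCs and fibroblasts, at means of 75.4, 67.0 and 63.8 CPM, overlapped with SGCs and with one another. Neurons had the lowest mean of the 9 classes, at 23.9, 29.1 and 30.04 CPM (log2 fold change -1.50, SE 0.23, adjusted p = 2.11e-06). A P2rx4 UMI was seen in 32.7%, 73.4% and 65.9% of myeloid nuclei, and after thinning to 1000 UMIs in 21.2%, 38.5% and 34.1%, against 2.40%, 2.38% and 2.37% of thinned neurons. Subtypes of neurons differed little, with PEP at 29.3, 37.3 and 35.1 CPM the only one called higher (0.54, adjusted p = 0.00163). TH, at 16.4, 17.4 and 21.5 CPM, was the only one called lower (-0.42, SE 0.14, adjusted p = 0.0302).

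P2rx7 (ENSMUSG00000029468, chromosome 5, 122643911 to 122691432), the channel that opens a large pore at high ATP and starts interleukin release in macrophages, was highest in Schwann cells and myeloid nuclei. MSCs held the most, 273, 296 and 349 CPM (log2 fold change 2.46, SE 0.14, adjusted p = 1.12e-13). NMSCs held 178, 247 and 267 CPM (2.01, SE 0.15, adjusted p = 4.83e-11), and myeloid nuclei 151, 253 and 278 CPM (1.92, SE 0.17, adjusted p = 2.47e-10). NMSCs and myeloid nuclei overlapped, and both lay above SGCs at 108, 105 and 112 CPM (0.89, adjusted p = 4.4e-05). Myeloid nuclei also overlapped with MSCs, at 278 CPM in aged replicate 2 against 273 CPM in adult MSCs. Neurons held 5.83, 6.18 and 4.86 CPM, the lowest of the 9 classes (log2 fold change -3.81, SE 0.22, adjusted p = 2.36e-14), and no neuron subtype was called. A P2rx7 UMI was seen in 48.1%, 57.4% and 57.7% of MSC nuclei and in 6.71%, 5.93% and 6.65% of neuron nuclei, and after thinning to 1000 UMIs in 23.1%, 24.1% and 24.9% against 0.697%, 0.444% and 0.535%. The median depth was 2417.5, 3467 and 3826 UMIs in MSCs and 7357, 5606.5 and 7662 UMIs in neurons, so the class with fewer UMIs per nucleus had the larger share. The 2 SGC clusters differed: the larger had 115, 124 and 124 CPM, and the smaller, led by Prss35 and Mmd2, had 61.5, 66.8 and 71.0 CPM. Of all P2rx7 UMIs in kept nuclei 42.5%, 21.4% and 20.9% lay in SGCs, 19.5%, 32.8% and 26.8% in MSCs and 15.4%, 16.5% and 15.6% in NMSCs.

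P2ry1 (ENSMUSG00000027765, chromosome 3, 61002795 to 61008982), a receptor for ADP that raises intracellular calcium, was highest in the TH neurons. TH nuclei, the low-threshold C-fibre mechanoreceptors, held 208, 226 and 156 CPM, and the next subtype, NF, held 23.8, 33.7 and 19.4 CPM. No value of another subtype came near the TH values, and the log2 fold change was 4.0 (SE 0.15, adjusted p = 3.48e-13). A P2ry1 UMI was seen in 65.5%, 70.8% and 76.8% of TH nuclei against 11.9%, 14.3% and 13.03% of PEP nuclei. Thinned to 1000 UMIs, the shares were 21.4%, 25.5% and 26.1% against 1.18%, 0.983% and 0, the last on 0 of 261 nuclei.

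Inside TH and NF the gene was uneven. The TH cluster led by Th and C1ql4 had 595 ± 64.5 CPM and the one led by Cdh9 and Tafa4 had 137 ± 33.7 CPM (SD, n = 3 libraries). A small NF cluster of 91 nuclei, led by Lypd1, Tbx3 and Cbln2, had 532 ± 105 CPM, and a cluster without a subtype name led by Col23a1 and Skor2 had 97.6 ± 7.35 CPM. The 2 clusters with the most P2ry1 were also low in Malat1, and P2ry1 in TH nuclei was 690, 512 and 517 CPM where the Malat1 share was under 1% and 143, 171 and 108 CPM in the other TH nuclei. In NF the same split gave 86.7, 72.7 and 35.3 CPM against 15.4, 4.56 and 11.6 CPM. The direction was thus opposite to that of P2rx3 in NP Mrgprd nuclei; what sets the Malat1 share apart in these nuclei was not tested.

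**Figure D3:**
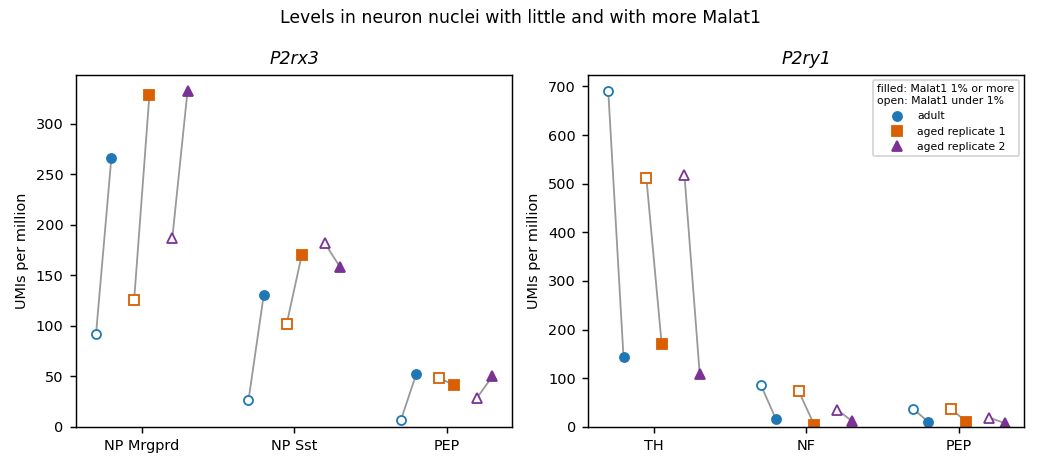
Levels of P2rx3 (left) and P2ry1 (right) in neuron subtypes, in CPM, in nuclei with a Malat1 share of 1% or more (filled) and under 1% (open), joined for each library by a line. In NP Mrgprd nuclei P2rx3 is lower, and in TH, NF and PEP nuclei P2ry1 is higher, in the low-Malat1 nuclei of each library, while P2rx3 in NP Sst and PEP nuclei differs in direction between libraries.

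Over all neurons P2ry1 was 42.7, 32.8 and 33.1 CPM (log2 fold change 1.72 against the other classes, SE 0.18, adjusted p = 5.65e-09). This call did not hold when nuclei were classed by a marker gate on each nucleus, where the log2 fold change was 0.05 (adjusted p = 0.905). Endothelial nuclei held 30.4, 23.0 and 22.5 CPM on 24, 22 and 7 UMIs and were called higher (0.84, adjusted p = 0.0431), a call that 5 of the 7 alternatives with all libraries lost, at adjusted p from 0.0649 to 0.662. P2ry1 shares 992 bases with the antisense gene Gm37035.

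P2ry2, a receptor for ATP and UTP, was highest in MSCs at 29.2, 49.4 and 43.1 CPM on 58, 131 and 42 UMIs (log2 fold change 2.71, SE 0.29, adjusted p = 2.53e-08). The other 8 classes lay at means between 3.44 and 10.7 CPM and overlapped. A P2ry2 UMI was seen in 9.003% of the adult MSC nuclei with P2rx7 and in 7.16% of those without. In the aged libraries it was seen in 20.4% against 11.3% and in 19.0% against 14.1%, and these shares were not thinned to a common depth. In neurons, where the level was 6.39, 7.05 and 7.45 CPM, the gene was graded across subtypes: PEP held 11.2, 12.0 and 12.6 CPM (2.37, SE 0.23, adjusted p = 1.62e-07) and TH 8.18, 7.61 and 8.96 CPM (1.83, SE 0.27, adjusted p = 2.65e-05). PEP, TH and NF did not overlap, and the means of NP Mrgprd, Trpm8 and NP Sst were lower, at 1.78, 1.28 and 1.15 CPM. Trpm8 and NP Sst rested on 3, 0 and 3 and on 1, 2 and 0 UMIs. Their highest values, 2.60 and 2.52 CPM, overlapped with NF, which held 2.17 CPM in the adult library. Most of the PEP signal came from the cluster led by Chrna7 and Bmpr1b, at 20.2 ± 2.18 CPM, while the PEP cluster led by Sstr2 and Car8 had 3.46 ± 0.89 CPM (SD, n = 3 libraries). The Mrgpra3 cluster held 18.6 ± 3.96 CPM.

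P2ry12 (ENSMUSG00000036353, chromosome 3, 59216272 to 59262871), the ADP receptor of platelets and microglia, was highest in myeloid nuclei at 141, 128 and 132 CPM on 41, 126 and 100 UMIs (log2 fold change 3.10, SE 0.18, adjusted p = 4.35e-14). NMSCs held 63.5, 80.5 and 75.4 CPM (2.23, SE 0.17, adjusted p = 5.47e-11) and SGCs 58.9, 63.6 and 63.6 CPM (2.04, SE 0.15, adjusted p = 1.94e-11), and these classes overlapped. MSCs, the class with the most P2rx7, held 14.6, 18.9 and 24.6 CPM of P2ry12. Neurons held 3.17, 3.10 and 2.86 CPM (-2.74, SE 0.22, adjusted p = 2.13e-11). SGCs outnumber the myeloid nuclei in each library, and 56.0%, 39.1% and 34.0% of the P2ry12 UMIs in kept nuclei lay in SGCs, against 3.54%, 15.8% and 22.7% in myeloid nuclei. In adult SGCs 14.04% of the nuclei with a P2rx7 UMI also had a P2ry12 UMI, as did 13.99% of those without. In the aged libraries the shares were 35.1% against 21.7% and 28.2% against 26.3%. These shares were not thinned to a common depth, and the median depth of SGCs was 3214, 7275 and 8058 UMIs. The part of depth in them was not tested.

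P2ry14 (ENSMUSG00000036381, chromosome 3, 59113855 to 59153618), the receptor for UDP-glucose, was highest among the tested classes in myeloid nuclei, at 58.3, 92.8 and 93.9 CPM (log2 fold change 3.80, SE 0.46, adjusted p = 1.51e-07). T cells, at 73.3, 23.4 and 22.8 CPM on 10, 3 and 2 UMIs, overlapped with them. Fibroblasts held 16.2, 24.1 and 56.2 CPM (1.95, SE 0.51, adjusted p = 0.0037), and the call was lost without aged replicate 1 (adjusted p = 0.0825) or aged replicate 2 (0.146). The fibroblast clusters differed: the one led by Slc47a1 held 4, 0 and 0 UMIs, while that led by Egfr and Crispld2 held 27.4, 46.3 and 113 CPM. Mural cells, the contractile cells of vessel walls, had 57, 18 and 3 nuclei, too few for the class comparison, and their P2ry14 level was 205, 158 and 413 CPM on 31, 12 and 5 UMIs. The same mural nuclei held 0 UMIs of P2rx7 and P2ry12 in all libraries.

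P2ry12 and P2ry14 both lie wholly within Med12l, which is transcribed from the opposite strand. The pattern of Med12l across classes and subtypes was unlike theirs, with a Pearson correlation of -0.65 for P2ry12 and -0.38 for P2ry14 over 14 class and subtype means of log2(CPM + 1), a description over points that share their libraries. By the same measure the gene most like P2rx7 was Mertk (0.97), that most like P2ry12 was Anln (0.95), that most like P2rx3 was Mrgpra2b (0.95), and that most like P2rx4 was Zfc3h1 (0.96). For P2rx6 it was Gm40055 (0.94), for P2ry14 Gm50143 (0.93), for P2ry1 Bmp15 (0.90), for P2rx2 Gm12414 (0.89), for P2rx5 Sh3bgr (0.87) and for P2ry2 Rnf141 (0.84). Between the members, the most alike were P2rx7 and P2ry12 (0.88), P2rx4 and P2ry12 (0.85), P2rx4 and P2rx7 (0.78), and P2rx5 and P2rx6 (0.72).

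The comparison of aged with adult libraries was made within each class, on 52 pairs of a member and a class and 43 pairs of a member and a neuron subtype. In the classes 2 pairs were called higher and 2 lower in the aged libraries, against backgrounds of 3.43% and 4.91% of gene and class pairs. In the subtypes 0 were called higher and 5 lower, against 2.79% and 5.17%, and of the 5 lower calls 4 were of P2ry14. At an unadjusted p under 0.05, 1 pair was higher in the subtypes (P2rx4 in NP Mrgprd nuclei), and the DESeq2 Wald test called 0. Without the low-Malat1 nuclei, P2rx4 in NP Mrgprd nuclei was called higher (log2 fold change 0.65, SE 0.21). P2ry1 was then called lower in neurons (-0.57, SE 0.15) and in NF nuclei (-1.26, SE 0.36) as well. With 1 adult library the spread came from the aged libraries alone.

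**Figure D4:**
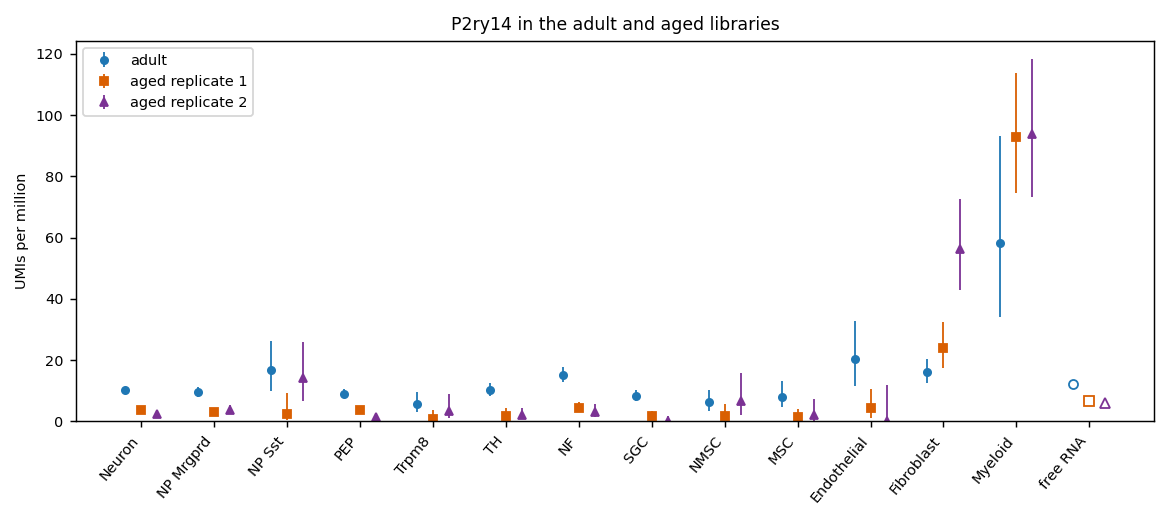
Level of P2ry14, in CPM of the class or subtype, in the adult library and the 2 aged libraries, with open points, which carry no interval, for the free RNA. Points are libraries and vertical lines exact 95% Poisson intervals, which cover counting error only. The adult value lies above both aged values in neurons, SGCs and the NP Mrgprd, PEP, TH and NF subtypes, and below them in fibroblasts and myeloid nuclei. In NMSCs the adult value lies between the aged values.

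P2ry14 was called lower in aged neurons and SGCs, and its level was lower in both aged libraries in other classes too, where no change was called: 8.04, 1.51 and 2.05 CPM in MSCs (adjusted p = 0.0926), 20.3, 4.18 and 0 CPM in endothelial nuclei (0.38), and 73.3, 23.4 and 22.8 CPM in T cells, where it did not pass the low-count filter. This did not hold in NMSCs, at 6.22, 1.89 and 6.74 CPM, where aged replicate 2 lay above the adult library. In neurons it fell from 698 UMIs, or 10.3 CPM, in the adult library to 149 and 75 UMIs, or 3.61 and 2.46 CPM, in the aged libraries (log2 fold change -1.88, SE 0.27, adjusted p = 3.21e-10), where 7.24% of genes were called lower. In SGCs the values were 8.27, 1.64 and 0 CPM on 91, 8 and 0 UMIs (-3.11, SE 0.56, adjusted p = 1.41e-06), where 7.64% of genes were called lower, and for the 0 in 2357574 UMIs of aged replicate 2 a limit of 3 counts is 1.27 CPM, while the exact 95% Poisson interval ends at 1.56 CPM. Among the subtypes it was lower in NF at 15.1, 4.49 and 2.91 CPM (-2.13, adjusted p = 5.35e-08), in PEP at 9.02, 3.66 and 1.41 CPM (-1.98, adjusted p = 1.33e-06), in TH at 10.2, 1.81 and 2.09 CPM (-2.51, adjusted p = 0.00253) and in NP Mrgprd at 9.41, 3.09 and 3.68 CPM (-1.59, adjusted p = 0.00083). The adult value lay above both aged values in each of these.

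In myeloid nuclei and fibroblasts, the classes in which P2ry14 was called higher, no change was called: the log2 fold change was 0.72 in myeloid nuclei (adjusted p = 0.204) and 1.17 in fibroblasts (adjusted p = 0.186). The difference between their age effect and that of the other classes did not pass the test either, in a fit that includes classes with 0 aged UMIs, at 3.19 in myeloid nuclei (SE 0.99, adjusted p = 0.118) and 3.56 in fibroblasts (SE 0.96, adjusted p = 0.135). P2ry14 in barcodes of 10 to 100 UMIs, which hold free RNA rather than nuclei, moved the same way as in neurons, at 12.1, 6.77 and 6.13 CPM. When the UMIs expected from that free RNA were taken out, P2ry14 was still called lower in neurons (-2.11, adjusted p = 0.00306), SGCs (-3.82, adjusted p = 0.0244), NP Mrgprd (-1.69, adjusted p = 0.0212) and NF (-2.36, adjusted p = 1.9e-07), and no longer in PEP (adjusted p = 0.155) or TH (0.0715). It was also called lower in neurons without the low-Malat1 nuclei (-1.77, adjusted p = 0.00579). The DESeq2 Wald test kept the calls in neurons (adjusted p = 0.000105) and NF (0.0487), lost those in NP Mrgprd (0.295), PEP (0.144) and TH (0.782) and gave no adjusted p in SGCs. In 1 fit over all classes the calls in NP Mrgprd (0.115), PEP (0.0664) and TH (0.119) were lost, and under the marker gate those in SGCs (0.156) and NF (0.0785). With 1 aged library left out, the log2 fold change in PEP was -1.50 without aged replicate 2 and -2.82 without aged replicate 1. In NF it was -2.60 without aged replicate 1, and in SGCs it was -2.51 without aged replicate 2. Without aged replicate 1 the aged side of the SGC comparison holds 0 UMIs. The SGC sums were not alike in other ways. The 7 neuron markers together stood at 831, 1536 and 1360 CPM in them, and the 6 NMSC markers at 15429, 9686 and 10460 CPM. Of the SGC markers, Fabp7 was 369, 178 and 166 CPM, while Kcnj10 was 156, 174 and 161 CPM. The 7 myeloid markers, all detected in each library, summed to 70.4, 30.2 and 27.5 CPM in neurons and to 31.0, 19.2 and 25.0 CPM in SGCs. Cx3cr1 alone had a mean of 28.9 CPM in neurons, so the neuron sum is not a measure of myeloid RNA only. By subtype the sum was lower in both aged libraries in NP Mrgprd, PEP and NF nuclei, and in TH nuclei it was 26.6, 26.8 and 15.5 CPM. Med12l, on the opposite strand, went the other way in neurons, at 168, 232 and 256 CPM. The part of the Malat1 share, of these markers and of strand in the result was not tested.

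In myeloid nuclei P2rx4 and P2rx7 were higher in the aged libraries, where 7.85% of genes were called higher. P2rx4 was 189 CPM on 55 UMIs in the adult library and 492 and 435 CPM on 483 and 329 UMIs in the aged ones (log2 fold change 1.34, SE 0.22, adjusted p = 4.21e-08). P2rx7 was 151 CPM against 253 and 278 CPM (0.86, SE 0.25, adjusted p = 0.00559). P2ry12 was not called in the same nuclei, at 141, 128 and 132 CPM (-0.06, SE 0.28, adjusted p = 0.918).

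**Figure D5:**
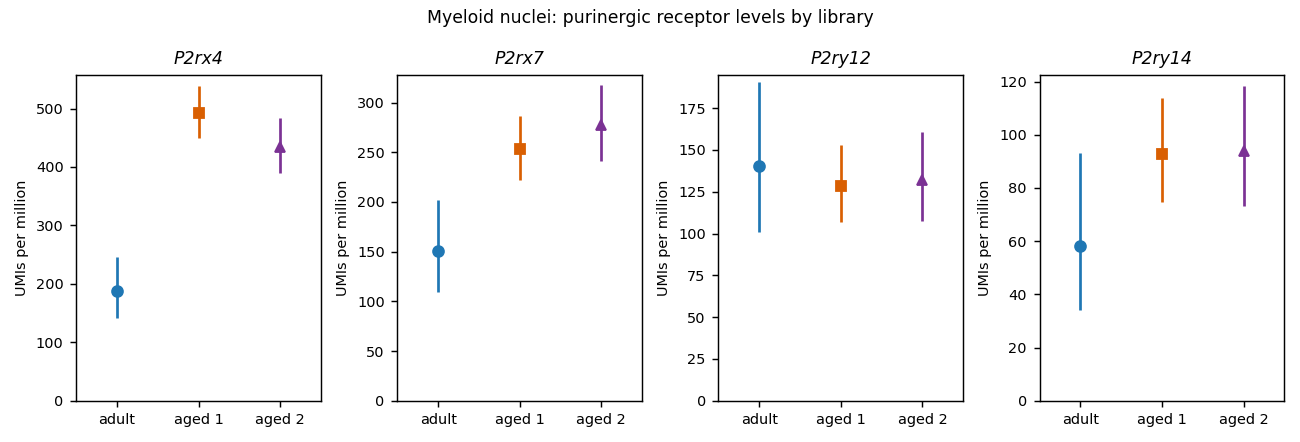
Levels of P2rx4, P2rx7, P2ry12 and P2ry14 in myeloid nuclei, in CPM, in the adult library and the 2 aged libraries. Points are libraries and vertical lines exact 95% Poisson intervals of the UMI counts; P2rx4 and P2rx7 are higher in both aged libraries, and P2ry12 lies between 128 and 141 CPM in all 3.

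The myeloid sums were not alike in other ways. They held 104 adult nuclei of a median 2314.5 UMIs and 218 and 170 aged nuclei of 3608 and 3764 UMIs. The estimated share of free RNA was 26.0% in the adult sum and 9.60% and 7.93% in the aged sums, and the 7 neuron markers together stood at 1306 CPM against 561 and 500 CPM, all 7 detected in each. The 7 myeloid markers differed in direction. F13a1 was 1268, 433 and 869 CPM, Cx3cr1 147, 88.7 and 99.2 CPM, Mrc1 504, 456 and 377 CPM and Csf1r 363, 306 and 286 CPM, each lower in both aged libraries. Aif1, at 13.7, 24.5 and 29.1 CPM, and the lysosomal marker Cd68, at 41.1, 111 and 89.9 CPM, were higher in both, and C1qa was 109.7, 115 and 66.1 CPM. After the expected free RNA was taken out, the log2 fold change of P2rx4 was 1.04 (adjusted p = 0.000327) and that of P2rx7 was 0.57, which was no longer called (adjusted p = 0.139). P2rx7 was also no longer called with the DESeq2 Wald test (adjusted p = 0.445), with more than 2000 genes per nucleus (0.135), under the marker gate (0.0957) or in 1 fit over all classes (0.0803). The T cell nuclei split from the same cluster had P2rx4 at 66.0, 156 and 228 CPM on 9, 20 and 20 UMIs (1.43, SE 0.66, adjusted p = 0.407) and P2rx7 at 22.0, 109 and 103 CPM on 3, 14 and 9 UMIs (2.14, SE 1.07, adjusted p = 0.483), and its unnamed nuclei had P2rx4 at 66.04, 235 and 260 CPM. The values were thus higher in both aged libraries in these nuclei as well, and a rise particular to myeloid nuclei is not shown. Whether the make-up of the myeloid nuclei differed between the libraries was not tested.

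The nociceptor channels gave no call with age, in a test with 1 residual degree of freedom that leaves even large differences uncalled, so the missing call does not show that the levels were alike. P2rx3 in neurons differed by 0.29 on the log2 scale (SE 0.23, adjusted p = 0.519) and in NP Mrgprd nuclei 0.11 (SE 0.22, adjusted p = 0.834), and P2rx2 in NP Sst nuclei had 0.87 (SE 0.53, adjusted p = 1). P2rx7 in MSCs had 0.12 (SE 0.15, adjusted p = 0.73), and P2ry12 in SGCs had -0.08 (SE 0.18, adjusted p = 0.824). P2ry1 was lower in NP Mrgprd nuclei, at 14.3, 9.91 and 7.24 CPM (-0.84, SE 0.30, adjusted p = 0.0498), a call at the edge of the threshold that 5 of the alternatives lost, with adjusted p from 0.0666 to 0.632.

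The genes around the receptors were followed as a list of 27: other P2 receptors, adenosine receptors, the enzymes that break nucleotides down outside the cell, ATP release, and the uptake and breakdown of adenosine. Of 153 pairs of a listed gene and a class, 38 were called higher and 32 lower, where 18.5% and 13% of all gene and class pairs were. Myeloid nuclei held P2ry6, a UDP receptor, at 154, 161 and 159 CPM (log2 fold change 5.48, adjusted p = 5.97e-15), and Entpd1, which takes ATP and ADP down to AMP, at 360, 613 and 484 CPM (2.57, adjusted p = 4.33e-09); Entpd1 was also called higher in endothelial nuclei (2.39, adjusted p = 3.47e-08) and SGCs (1.35, adjusted p = 0.000128), and P2ry6 in T cells (2.67, adjusted p = 0.0135). SGCs held Alpl, a phosphatase that can finish this breakdown to adenosine, at 82.3, 60.9 and 61.1 CPM (3.96, adjusted p = 1.64e-12), and it was called higher in fibroblasts (3.09), endothelial nuclei (2.17) and NMSCs (1.95) as well. Neurons held Entpd3, another ectonucleotidase, at 82.7, 92.5 and 95.8 CPM (2.84, adjusted p = 2.03e-13), and the channel gene Panx2 at 31.4, 41.6 and 41.0 CPM (2.57, adjusted p = 9.01e-11), with Panx2 also called in endothelial nuclei (1.23, adjusted p = 0.0207). P2ry10 was called higher in B cells (5.82, adjusted p = 6.16e-07) and T cells (5.06, adjusted p = 0.000242). The nucleoside carrier Slc28a2 was called higher in B cells (5.30, adjusted p = 3.65e-11), T cells (5.30, adjusted p = 4.46e-10) and myeloid nuclei (2.65, adjusted p = 1.62e-05). Slc17a9, the vesicular ATP carrier, was called higher in T cells at 36.7, 70.2 and 22.8 CPM on 5, 9 and 2 UMIs (2.44, adjusted p = 0.00127) and in myeloid nuclei at 20.6, 33.6 and 41.0 CPM on 6, 33 and 31 UMIs (2.28, adjusted p = 1.52e-06).

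By group, of the 10 breakdown enzymes 7 were tested across classes, with 18 of 63 pairs called higher and 13 lower. Of the 5 other P2 receptors 2 were tested, P2ry6 and P2ry10, and of the 4 adenosine receptors 2 were, with Adora1 higher in neurons and SGCs. Across neuron subtypes 26 of 108 pairs were called higher and 27 lower, against 17.6% and 14.4% of all pairs. With age, 5 of 111 pairs in the classes and 3 of 88 in the subtypes were called higher, against 3.43% and 2.79% of all pairs, and 10 and 9 lower, against 4.91% and 5.17%. The age calls of the breakdown enzymes were 4 higher and 19 lower, of 93 pairs over classes and subtypes together. Neurons enter this count both as a class and by subtype. The shares of all pairs called lower, 4.91% in the classes and 5.17% in the subtypes, were counted apart and not for the pooled pairs. The lower calls came from 3 genes: 10 were of Enpp2, the secreted enzyme autotaxin, and 7 of Entpd1, both named after their values were seen. Breakdown of nucleotides was not measured, so the count describes the listed genes only. Enpp2 in neurons was 106, 25.6 and 22.5 CPM (log2 fold change -2.26, adjusted p = 2.74e-22), and Entpd1, lower in aged SGCs, Schwann cells and neurons, was higher in aged myeloid nuclei (0.66, adjusted p = 0.00622).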

How the data were processed

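Single-nucleus libraries of lumbar DRG, 1 from adult and 2 from aged mice, had been made with a particle-templated 3' kit and reduced by the authors with Pipseeker against mm10, per the labels; the annotation and the use of strand are not given in the sources used here. The deposited values are UMI counts per gene and barcode, not normalized, with 167664164, 95647106 and 69045987 UMIs in the 3 libraries. The 10 members and all lists were chosen with earlier results of these data known.

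Barcodes with more than 1000 genes were kept (19259). They were clustered in Seurat 5.3.0 (SCTransform, integration by age, 30 components, resolution 0.8) without the 10 members and 27 pathway genes, giving 32 clusters, named from fixed markers; 1 immune cluster was split into myeloid and T cell nuclei by marker UMIs per nucleus. 8376 nuclei were neurons, clustered again into 24 clusters. No doublet caller was run: clusters with markers of 2 lineages (800 nuclei) were set aside, as were 110 unnamed nuclei, and 2145 neurons had no subtype. UMIs were summed per class and library, where every library gave a class at least 20 nuclei.

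Sums were tested with edgeR 4.0.16 (TMM, low-count filter, quasi-likelihood test, Benjamini-Hochberg adjustment over all genes tested), with library as a block for class and subtype, and without it for age (1 residual degree of freedom). The standard error is the log2 fold change over the square root of F. Free RNA was read from barcodes of 10 to 100 UMIs. Shares have exact 95% binomial intervals in the tables, and intervals and the limit from 0 UMIs (3 counts) cover counting error only. Named genes are the 10 members, the 8 listed pathway genes with the largest log2 fold change across classes, and the genes most like each member. Adora1, Enpp2 and the genes that overlap a member are named in addition. The scripts were tested on simulated data. Alternatives used DESeq2 1.42.0, other filters, a marker gate and left-out libraries. Sequences are from RefSeq and positions from GENCODE. Python 3.11.15 and R 4.3.3 were used.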

Additional observations from a re-analysis of the deposited data

Results flagged for a closer look

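3 results stood out because the age effect of a receptor in 1 class or subtype differed from its mean effect in the others. The test was the interaction term of edgeR's quasi-likelihood test over all genes. It covered 72 pairs of a member and a class and 60 pairs of a member and a subtype. The share of all genes that it called was not counted, so these calls cannot be set against a background. For P2rx4 the age difference in myeloid nuclei exceeded the mean of the other classes by 1.31 on the log2 scale (SE 0.30, adjusted p = 0.0229); the T cell nuclei of the same cluster had a like value, 1.33 (SE 0.53), that did not pass the test (adjusted p = 0.557). In NMSCs, where P2rx4 was 95.4 CPM in the adult library and 56.6 and 74.1 CPM in the aged, the age difference minus that of the other classes was -1.18 (SE 0.27, adjusted p = 0.0376). Within NMSCs alone the log2 fold change with age was -0.75 and did not pass the test (adjusted p = 0.0917). Endothelial nuclei (-0.90, SE 0.41), SGCs (-0.56, SE 0.24), MSCs (-0.30) and neurons (-0.18) lay on the same side and did not pass the test. Fibroblasts (0.27) and B cells (0.21) lay on the other side, as did myeloid and T cell nuclei, which are part of the mean used. NMSCs are thus not shown to stand apart. For P2ry1 the age difference in NF nuclei minus that of the other subtypes was 0.82 (SE 0.23, adjusted p = 0.0412), although in NF itself the log2 fold change was 0.03 (adjusted p = 0.944) and the values were 23.8, 33.7 and 19.4 CPM. PEP (0.72, SE 0.24, adjusted p = 0.71) and TH (0.63, SE 0.20, adjusted p = 0.43) had values near that of NF and Trpm8 had -1.60 (SE 0.46, adjusted p = 0.74), so NF is not shown to stand apart from PEP and TH. The 0.03 of NF did not hold without the low-Malat1 nuclei, where P2ry1 was called lower with age in NF (-1.26, SE 0.36, adjusted p = 0.0104). NP Mrgprd was then called lower as well (-1.37), and PEP (-0.34), TH (-0.19) and Trpm8 (-2.54) were not called. The median Malat1 share of NF nuclei was 3.46%, 0.453% and 0.458%. Whether the 0.82 holds without these nuclei was not tested. All 3 flagged results rest on a single adult library.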

How the results depend on the processing

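The number of called pairs of a member and a class, 27, lay between 21 and 32 under the alternatives planned with all libraries kept, at 24 in a fit with sums of 3 nuclei chosen after seeing the data, and between 19 and 27 with 1 library left out. For pairs of a member and a neuron subtype it was 30, between 21 and 34 under the alternatives and between 21 and 27 with 1 library left out. For pairs called with age it was 9, and it fell to 3 with the DESeq2 Wald test, to 5 with free RNA subtracted and to 4 in 1 fit over all classes; the other alternatives gave 7 to 12, and the cause was not tested. No paired analysis was possible because there is 1 adult library and the groups share only replicate number 1. With 1 aged library left out, age is 1 library against 1 and was not tested; the direction was that of both aged libraries in 18 of 18 such values.

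Of the called results compared one by one, 251 kept their direction and call across classes, 277 across subtypes and 60 of the 80 tested with age, 38, 37 and 20 kept the direction only, and 3, 6 and 0 turned. Under the marker gate the log2 fold change turned to 0.57 for P2rx3 in myeloid nuclei, 0.093 for P2rx6 in NP Sst, -0.24 for P2rx6 in PEP and 0.25 for P2ry2 in Trpm8. With at least 50 nuclei, which takes NP Sst and Trpm8 out of the fit, P2rx2 turned to 1.12 in PEP and 0.80 in TH, and without low-Malat1 nuclei, which takes NP Sst out, to 0.29 in PEP. P2ry2 in fibroblasts lay between -2.62 without aged replicate 1 and 0.13 without adult replicate 1, and P2rx7 in B cells turned to 0.23 in the added fit, where mural nuclei hold 0 UMIs of P2rx7. Sparse receptors limit these comparisons: P2ry14 in adult myeloid nuclei rests on 17 UMIs, and P2rx2 in NP Sst on 41 to 58 UMIs per library.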
